A study of Mus musculus with 9 samples.

Results

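The miR-29 family consists here of 3 mature miRNAs, miR-29a-3p, miR-29b-3p and miR-29c-3p, with the 4 passenger arms that are cut from the same 4 hairpins (miR-29a-5p, miR-29b-1-5p, miR-29b-2-5p and miR-29c-5p). The members were chosen by name and not by their values, and the reads of the Mir29b-1 and Mir29b-2 copies of miR-29b-3p were summed. They were located among the 414 miRNAs and shifted miRNA starts listed by the study, of which 294 start at the reference position. The study asked how the preparation of a small RNA library changes what is read from the same kind of RNA. RNA of MIN6, a mouse insulinoma line that resembles pancreatic beta cells, grown in DMEM with 25 mM glucose, was made into 3 libraries with the Illumina TruSeq kit (TS-GAIIx), 3 with the Illumina v1.5 kit (v1.5-GAIIx) and 1 with the Bioo Scientific NEXTflex V2 kit (NF-HiSeq), whose adapters carry degenerate nucleotides. The GAIIx and HiSeq in these names are the sequencers. Liver RNA of 1 female C57BL/6J mouse, bought at 9 weeks of age, injected with saline and fasted overnight, was made into 1 TruSeq library (TS-HiSeq-ML) and 1 NEXTflex library (NF-HiSeq-ML). The study describes no genetic manipulation and no drug treatment for any group, although MIN6 is itself a tumour line. The MIN6 TruSeq libraries sequenced on the HiSeq, 1 of which shared its RNA with NF-HiSeq, are not analysed here, so that NEXTflex in MIN6 differs from the other preparations also in RNA sample, sequencer, facility and date. RNA was isolated with a Norgen kit at one site of the study and with TRIzol at the other, so that the extraction may differ as well. The study calls the libraries of a kit biological replicates, the labels do not say whether they came from separate cultures, and p-values measure the spread between these libraries.

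The family is one of the best known in the beta cell and the liver. In beta cells, miR-29a and miR-29b are known to hold down Slc16a1, which encodes the monocarboxylate transporter MCT1, a gene that is kept silent in this cell type. In liver, miR-29 is known to repress collagen genes and is found above all in stellate cells, and it is low in many fibrotic tissues. All 3 members carry the same seed, the stretch near the 5′ end that pairs with target mRNAs, and are usually treated as having the same targets.

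The mature 3p sequences are shown because the members differ in only a few bases while their read counts behaved differently. Each is written 5′ to 3′ from RefSeq (assembly GRCm38.p6), with the seed, bases 2 to 8, in capitals:
miR-29a-3p: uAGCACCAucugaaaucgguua
miR-29b-3p: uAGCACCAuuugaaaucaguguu
miR-29c-3p: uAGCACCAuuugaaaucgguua
Counted from the 5′ end, miR-29a-3p and miR-29c-3p share their first 9 bases and differ by C10U alone. miR-29c-3p and miR-29b-3p share their first 17 bases and then differ by G18A, U21G and A22U, and miR-29b-3p is 1 base longer, with 23 bases against 22. A read that ends before base 18 can therefore belong to miR-29b-3p or to miR-29c-3p, and such short reads were divided among their places by the authors. In GRCm38.p6, Mir29a (chr6:31062660-31062747) and Mir29b-1 (chr6:31063023-31063093) lie next to each other on the minus strand of chromosome 6. Mir29b-2 (chr1:195037040-195037120) and Mir29c (chr1:195037547-195037634) lie next to each other on the plus strand of chromosome 1, in an exon of the noncoding gene A330023F24Rik and, on the other strand, in an exon of Cd46. In the mm9 alignments of the deposited data, the 3p arms started at base 31012694 (Mir29a) and 31013047 (Mir29b-1) of chromosome 6 and at base 196863285 (Mir29b-2) and 196863794 (Mir29c) of chromosome 1. The passenger arms differ more from each other:
miR-29a-5p: aCUGAUUUcuuuugguguucag
miR-29b-1-5p: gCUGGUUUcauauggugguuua
miR-29b-2-5p: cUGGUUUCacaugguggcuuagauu
miR-29c-5p: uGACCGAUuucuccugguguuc

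Levels are given as reads per 1000000 mapped reads (RPMM), the unit of the study, from the deposited counts at the listed 5′ end of each miRNA. The deposited counts summed to 6923460 to 25638872 reads a library, and the family's 3p arms held 40404 to 75872 reads in the TS-GAIIx libraries, 218369 to 289116 in the v1.5-GAIIx libraries and 199520 in NF-HiSeq, but 9 in TS-HiSeq-ML and 3143 in NF-HiSeq-ML. Where a single library is given with an interval, it is a 95% Wilson interval, which covers counting error only. The tissue labels were checked against 4 beta-cell and 3 hepatocyte miRNAs. Of the beta-cell markers, 3 were listed (miR-204-5p was not), and they summed to 77286 to 195227 RPMM in MIN6 against 47.9 and 403 RPMM in liver, while the 3 hepatocyte markers summed to 619 to 1480 RPMM in MIN6 against 108200 and 549356 RPMM in liver. The libraries also differed in the number of distinct alignments, 251879 and 179918 with NEXTflex, 2569547 in TS-HiSeq-ML and 551421 to 1276146 in the GAIIx libraries, and the part of this difference in the values below was not tested.

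miR-29a-3p was the most abundant member in all 9 libraries. It stood at 4302, 4393 and 4598 RPMM in the TS-GAIIx libraries, at 10501, 10384 and 10097 RPMM in the v1.5-GAIIx libraries, and at 6580 RPMM in NF-HiSeq. In liver it was at 0.485 RPMM in TS-HiSeq-ML (8 reads, interval 0.246 to 0.957) and at 176 RPMM in NF-HiSeq-ML (169 to 183). The v1.5 values lay above all others, the MIN6 NEXTflex value lay between the Illumina kits, and the liver TruSeq library was almost without this miRNA.

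Of the 3 members, miR-29b-3p differed most between the Illumina kits in MIN6. It was at 336, 294 and 298 RPMM in the TS-GAIIx libraries and at 10132, 9443 and 8716 RPMM in the v1.5-GAIIx libraries. NF-HiSeq held 592 RPMM, TS-HiSeq-ML 0.0606 RPMM, which is 1 read, and NF-HiSeq-ML 0.626 RPMM, which is 9 reads. With v1.5 the level of miR-29b-3p came close to that of miR-29a-3p, whereas with TruSeq it was far below it and below miR-29c-3p. It was near absence in liver with either kit.

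miR-29c-3p was at 1444, 1400 and 1406 RPMM in the TS-GAIIx libraries, at 2301, 2271 and 2211 RPMM in the v1.5-GAIIx libraries and at 632 RPMM in NF-HiSeq. It had 0 reads in TS-HiSeq-ML, which allows a level of up to 0.182 RPMM (3 reads), and 42.2 RPMM in NF-HiSeq-ML (39.0 to 45.8). This member was the only one of the 3 that was lower with NEXTflex than with TruSeq in MIN6. Among 293 reference miRNAs ranked by RPMM in each library, miR-29a-3p held rank 27 to 28 with TS-GAIIx, 20 with v1.5-GAIIx and 21 with NF-HiSeq. miR-29c-3p held rank 60 to 61, 58 and 79 in the same order, and miR-29b-3p held rank 113 to 121 with TS-GAIIx, 21 with v1.5-GAIIx and 85 with NF-HiSeq.

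**Figure D1:**
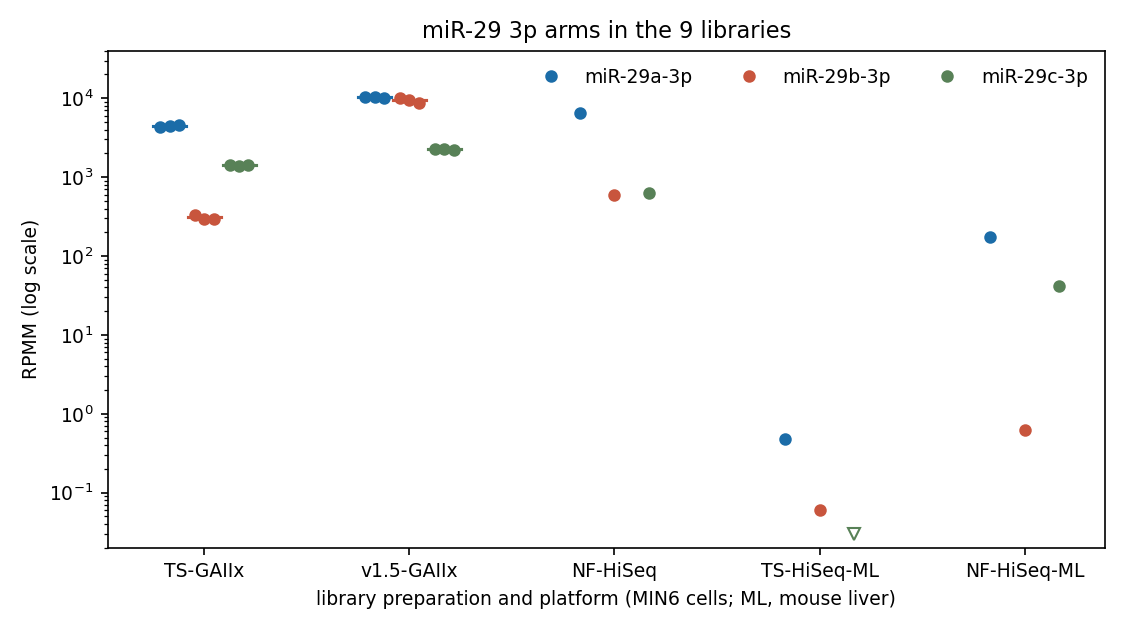
RPMM of the 3 miR-29 3p arms (log axis) in each library, by kit and sequencer; points are libraries, lines are means of 3 libraries and an open triangle marks 0 reads. miR-29b-3p rises from 309 RPMM with TS-GAIIx to 9431 RPMM with v1.5-GAIIx, next to miR-29a-3p, and all members are far lower in liver.

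In the comparison of the 2 groups with replicates, all 3 members were higher with v1.5, and by very different amounts. miR-29b-3p rose from 309 ± 23.0 to 9431 ± 708 RPMM (SD, n = 3 each), a 30.5-fold difference (log2 fold change 4.93, SE 0.079, edgeR quasi-likelihood test, adjusted p = 1.26e-12). miR-29a-3p rose from 4431 ± 152 to 10327 ± 208 RPMM, a 2.33-fold difference (log2 1.22, SE 0.043, edgeR adjusted p = 3.52e-10). miR-29c-3p rose from 1416 ± 23.8 to 2261 ± 46.0 RPMM, a 1.60-fold difference (log2 0.67, SE 0.042, edgeR adjusted p = 4.10e-08), which fell to a log2 fold change of 0.06 with an adjusted p of 0.288 when DESeq2's size factors replaced the mapped reads. For each of the 3, all 9 pairs of libraries gave the higher value to v1.5 (exact two-sided permutation test, p = 0.1, the smallest that 3 against 3 can give). The same size factors gave smaller log2 fold changes for the others too, 4.32 for miR-29b-3p and 0.61 for miR-29a-3p, both still past the threshold. The sum of the 3p arms went from 6156 ± 126 to 22019 ± 958 RPMM.

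These differences stand against a background in which most miRNAs changed. Of 350 highly expressed miRNAs and shifted starts (at least 100 RPMM in at least 1 MIN6 library), 92.6% differed between the kits (324) and 56.3% were higher with v1.5 (197), so that a call alone sets no member apart. The family had 6 rows in this table, the 3 members, miR-29a-5p and a shifted start each of miR-29a-3p and miR-29b-3p. Each was called higher with v1.5 when scaled to mapped reads. The shifted start of miR-29b-3p, with 0 reads in TS-GAIIx, is in the table only through v1.5, so that its call is a description. The shifted start of miR-29a-3p was called lower with TMM factors (log2 -0.38) or DESeq2's size factors (log2 -0.46). miR-29c-3p was not called with DESeq2's size factors. The median log2 fold change of all 350 was 0.68, with a 5th percentile of -2.88 and a 95th of 4.36. The split moves with the scaling. Of the calls, 60.8% were higher with v1.5 when scaled to mapped reads, against 51.2% with TMM factors (median 0.15) and 49.8% with DESeq2's size factors (median 0.07). On the log2 scale, miR-29c-3p lay at the median (-0.0038 from it), miR-29a-3p 0.54 above it and miR-29b-3p 4.25 above it, and they ranked 177, 146 and 13 of 350 from the highest. miR-29c-3p thus sat at the middle of the table and miR-29b-3p near its upper end.

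**Figure D2:**
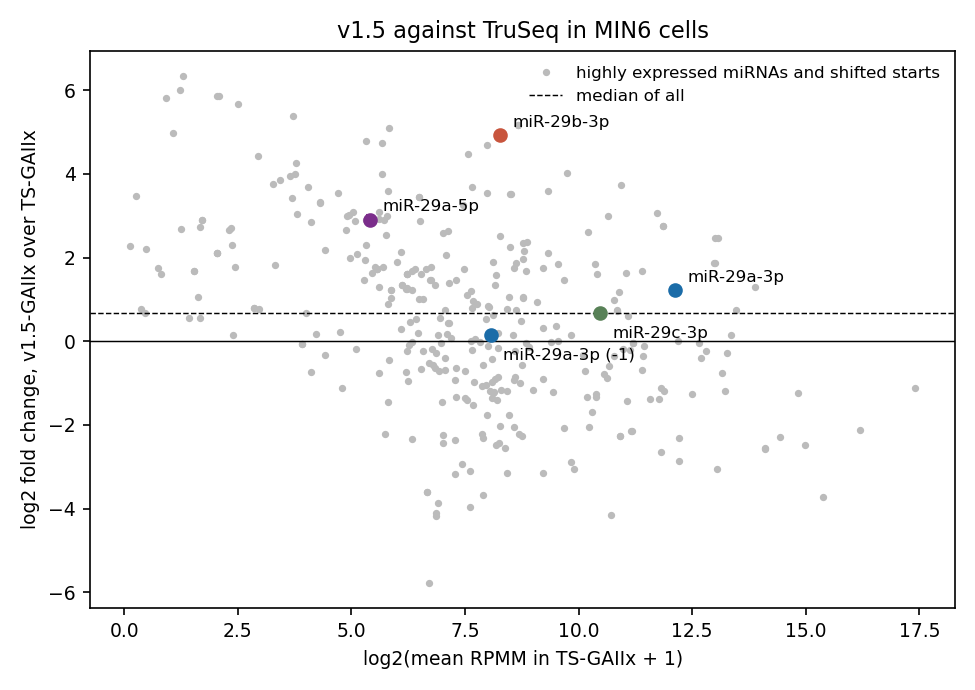
Log2 ratio of v1.5 to TruSeq levels on the GAIIx (y) against the mean level in TS-GAIIx (x, log2 of RPMM + 1) for 349 of the 350 highly expressed miRNAs and starts; 1 start at 0 reads in all TruSeq libraries, miR-29b-3p (+2), is not drawn. Coloured points are miR-29 with SE bars from edgeR, most of them smaller than the symbol, the dashed line is the median (0.68), miR-29c-3p sits on it and miR-29b-3p at 4.93 is above nearly all others.

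Ratios within a library do not depend on the scaling, and show how unequal the members' responses were. The ratio of miR-29b-3p to miR-29a-3p was 0.0697 (geometric mean) in TS-GAIIx and 0.912 in v1.5-GAIIx. On the log2 scale it was -3.68, -3.90 and -3.95 against -0.052, -0.14 and -0.21, a difference of 3.71, or 13.1-fold. The groups did not overlap (exact two-sided permutation test, p = 0.1, adjusted p = 0.1 over 3 ratios, the smallest possible). miR-29b-3p and miR-29c-3p, which are identical over their first 17 bases, changed places: their ratio was 0.218 in TS-GAIIx and 4.16 in v1.5-GAIIx, 19.1-fold apart (log2 difference 4.26, exact permutation test p = 0.1, adjusted p = 0.1). The ratio of miR-29c-3p to miR-29a-3p, which differ by C10U alone, was 0.320 and 0.219, a log2 difference of -0.55 (exact permutation test p = 0.1, adjusted p = 0.1). Its values were -1.58, -1.65 and -1.71 in TS-GAIIx and -2.19 in each v1.5-GAIIx library, again without overlap.

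The same values can be read as the make-up of the family. In TS-GAIIx, miR-29a-3p made up 72.0% ± 1.13 of the 3p reads, miR-29c-3p 23.0% ± 0.715 and miR-29b-3p 5.02% ± 0.431 (SD, n = 3). In v1.5-GAIIx, miR-29a-3p and miR-29b-3p were near each other at 46.9% ± 1.12 and 42.8% ± 1.36, and miR-29c-3p made up 10.3% ± 0.241. In NF-HiSeq, miR-29a-3p made up 84.3% (84.2 to 84.5), miR-29c-3p 8.10% (7.98 to 8.22) and miR-29b-3p 7.59% (7.47 to 7.71). Behind miR-29a-3p, the next place thus went to miR-29c-3p with TruSeq, to miR-29b-3p with v1.5 and to miR-29c-3p by a small margin with NEXTflex. In NF-HiSeq-ML the shares were 80.4% (78.9 to 81.7), 19.3% (18.0 to 20.8) for miR-29c-3p and 0.286% (0.151 to 0.543) for miR-29b-3p. The 9 reads of TS-HiSeq-ML, 8 of miR-29a-3p and 1 of miR-29b-3p, were too few for a make-up.

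**Figure D3:**
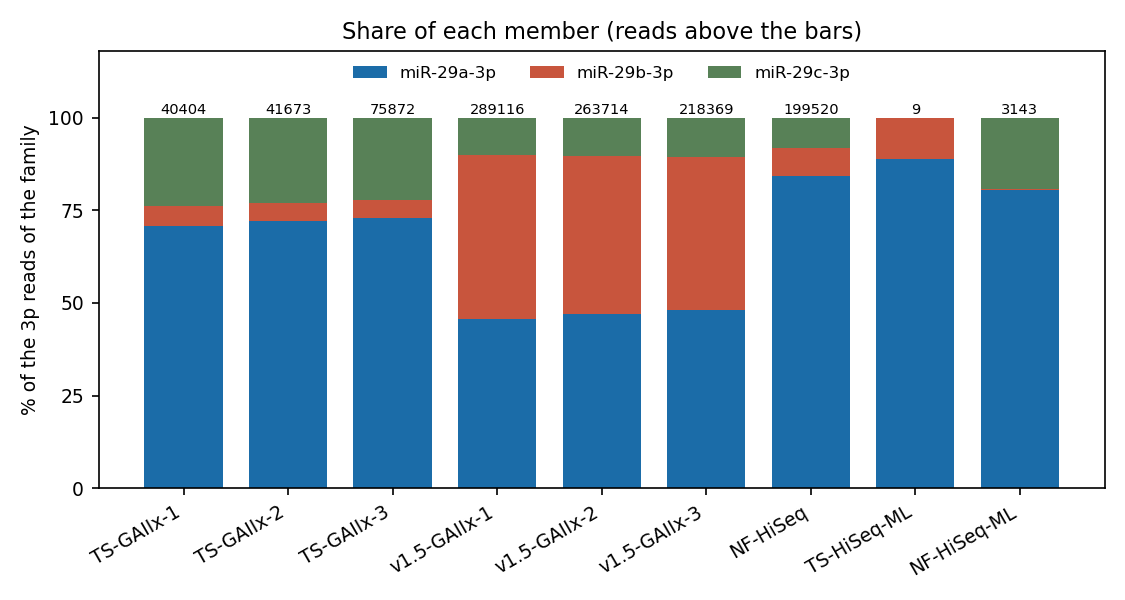
Share of each member among the 3p reads of the family (y, percent) in the 9 libraries, with the number of reads above each bar. miR-29b-3p takes 41.5% to 44.2% in the v1.5-GAIIx libraries and at most 7.59% in the other MIN6 libraries; the TS-HiSeq-ML bar rests on 9 reads.

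The study set miRNA levels against miR-30e-5p to compare sequencing with RT-qPCR of a few miRNAs, miR-29a-3p among them. It found NEXTflex best correlated with RT-qPCR, while stating that RT-qPCR has biases too. The RT-qPCR values are not used here. The level of miR-30e-5p itself was 10444 ± 912 RPMM in TS-GAIIx, 11655 ± 526 in v1.5-GAIIx and 5723 in NF-HiSeq. In the TruSeq and NEXTflex liver libraries it was 4403 and 2045 RPMM. On this scale miR-29a-3p was at 0.426 ± 0.0302, 0.888 ± 0.0574 and 1.15 times miR-30e-5p in the 3 MIN6 preparations, so that NEXTflex gave the highest value instead of v1.5. miR-29b-3p was at 0.0299 ± 0.00506, 0.812 ± 0.0978 and 0.104 times, and miR-29c-3p at 0.136 ± 0.0149, 0.194 ± 0.0127 and 0.110 times. Their order of preparations was the same as in RPMM.

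In MIN6, the NEXTflex library was closer to TruSeq than to v1.5 in RPMM for miR-29b-3p and miR-29c-3p. For miR-29a-3p it lay about midway, at log2 ratios of 0.57 to TruSeq and -0.65 to v1.5, which became 0.62 and -0.60 when scaled to the sum of all counts. With 1 RPMM added to each level, NF-HiSeq was 1.48-fold above the TS-GAIIx mean for miR-29a-3p, 1.91-fold above it for miR-29b-3p and 2.24-fold below it for miR-29c-3p. None of the 3 passed 10-fold, which 12.0% of the 350 did upward and 12.0% downward (median log2 ratio 0.11). Against v1.5-GAIIx, NF-HiSeq was 1.57-fold lower for miR-29a-3p, 3.57-fold lower for miR-29c-3p and 15.9-fold lower for miR-29b-3p, where 11.1% of the 350 were more than 10-fold lower (median log2 ratio -0.81). Scaled to miR-30e-5p, the difference of miR-29a-3p from v1.5 turned to a log2 ratio of 0.37 in favour of NEXTflex, from -0.65. NF-HiSeq is 1 library, and these ratios have no replicate check.

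The passenger arms were minor in MIN6, and at their RefSeq starts they were higher with v1.5 than with TruSeq, like their 3p arms but by other amounts. miR-29a-5p, the only passenger arm over 100 RPMM in any MIN6 library, was at 42.9, 46.6 and 34.3 RPMM in TS-GAIIx, at 315, 316 and 284 RPMM in v1.5-GAIIx and at 116 RPMM in NF-HiSeq. It was 7.49-fold higher with v1.5 than with TruSeq (log2 2.91, SE 0.10, edgeR adjusted p = 3.64e-10, rank 53 of 350), or by log2 2.29 with DESeq2's size factors, more than its own 3p arm in either case. The ratio of miR-29a-5p to miR-29a-3p was 0.00924 in TS-GAIIx and 0.0295 in v1.5-GAIIx, a log2 difference of 1.67 without overlap (exact two-sided permutation test, p = 0.1, the smallest possible). For miR-29b, the 5p arms of both copies took 4.16% to 5.76% of the reads of the hairpins' arms with TS-GAIIx, 0.443% to 0.519% with v1.5-GAIIx and 9.52% with NF-HiSeq. For Mir29c the 5p share was 4.57% to 5.60%, 3.87% to 3.93% and 6.51%, and for Mir29a 0.717% to 0.991%, 2.69% to 2.90% and 1.64%.

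The other 5p arms and most shifted starts stayed under 100 RPMM and were tested among all 16481 5′ ends of the genome with a mean of at least 1 RPMM over the 6 GAIIx libraries. Of these, 76.0% differed between the kits, 45.4% higher and 30.6% lower with v1.5 (median log2 0.57). Of the 20 miR-29 starts in this table that lay within 5 nt of a listed or reference start and under the limit, 17 differed, 12 higher and 5 lower (median 0.95), a description only, since some of them passed the limit on the mean only through the kit in which they were high. A start is named here by its shift from the reference start, negative upstream and positive downstream. miR-29b-1-5p was at 10.1, 10.7 and 6.64 RPMM in TS-GAIIx and at 18.9, 15.8 and 16.9 RPMM in v1.5-GAIIx (log2 0.92, SE 0.20, edgeR adjusted p = 0.00709). miR-29b-2-5p rose from 5.86 ± 1.75 to 20.0 ± 0.709 RPMM (log2 1.78, SE 0.22, edgeR adjusted p = 0.000575). miR-29b-3p, from the same hairpins, was 30.5-fold higher.

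In each preparation the start of miR-29c-5p with the most reads lay 2 nt downstream of the RefSeq start, which shifts its seed, printed here at the commonest length of its reads:
miR-29c-5p (+2): aCCGAUUUcuccugguguucaga
This start took 71.8% ± 2.01 of the arm's reads in TS-GAIIx, 55.5% ± 1.36 in v1.5-GAIIx, 44.9% in NF-HiSeq, 66.1% in TS-HiSeq-ML and 83.6% in NF-HiSeq-ML. The RefSeq start rose with v1.5, from 14.0 ± 2.85 to 29.6 ± 1.41 RPMM (log2 1.08, SE 0.17, edgeR adjusted p = 0.00161). The +2 start had 54.5 ± 5.56 and 51.1 ± 2.18 RPMM (log2 -0.09, SE 0.10, edgeR adjusted p = 0.437), and passed the test as lower with v1.5 only when scaled by TMM (log2 -0.44, adjusted p = 0.00686) or by DESeq2's size factors (log2 -0.48, adjusted p = 0.00472), while its sign turned with exact alignments alone (0.079, adjusted p = 0.536). miR-29b-2-5p also had a start 1 nt upstream, which gives it the seed of miR-29b-1-5p:
miR-29b-2-5p (-1): gCUGGUUUcacaugguggcuuaga
It took 29.5% ± 6.35 of the arm's reads in TS-GAIIx and 26.7% ± 0.949 in v1.5-GAIIx, but all of them in NF-HiSeq (7.59 RPMM), where the RefSeq start had 0 reads.

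**Figure D4:**
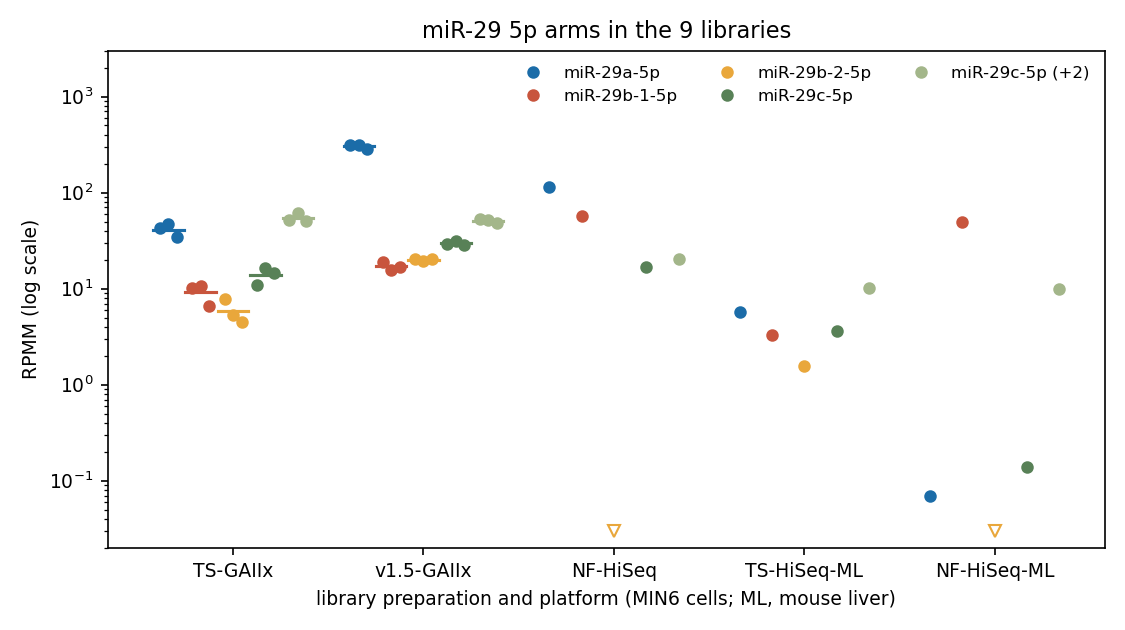
RPMM of the miR-29 5p arms (log axis) in each library, with the symbols of the plot of 3p levels; miR-29c-5p is shown at its RefSeq start and at the start 2 nt downstream. miR-29a-5p reaches 305 RPMM with v1.5-GAIIx, and miR-29b-1-5p is at 56.6 RPMM in NF-HiSeq and 49.8 RPMM in NF-HiSeq-ML, while miR-29a-5p is at 0.0695 RPMM in the latter.

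Among the 3p arms, 2 shifted starts were highly expressed, 1 nt upstream in miR-29a-3p and 2 nt downstream in miR-29b-3p. Their sequences show how each shift moves the seed, in capitals:
miR-29a-3p (-1): cUAGCACCaucugaaaucgguu
miR-29b-3p (+2): gCACCAUUugaaaucaguguu
The -1 start of miR-29a-3p was at 262, 274 and 266 RPMM in TS-GAIIx, at 284, 305 and 303 RPMM in v1.5-GAIIx and at 446 RPMM in NF-HiSeq. Its log2 fold change of 0.15 (SE 0.052, edgeR adjusted p = 0.0166) was below the median of all miRNAs, and it was lower with v1.5 under TMM (log2 -0.38) and under DESeq2's size factors (log2 -0.46). The call was lost without v1.5-GAIIx replicate 2 (log2 0.14, edgeR adjusted p = 0.0906) and when scaled to the reads on listed miRNAs (log2 0.018, edgeR adjusted p = 0.710). As a share of the reads at the -1 and the reference start together it was 5.73%, 5.87% and 5.46% in TS-GAIIx and 2.64%, 2.85% and 2.91% in v1.5-GAIIx, 2.89 percentage points lower without overlap (exact two-sided permutation test, p = 0.1, the smallest possible). Over all starts within 5 nt, the -1 start held 6.32% in NF-HiSeq, and in NF-HiSeq-ML it had 0 reads.

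The +2 start of miR-29b-3p was read only with v1.5. It had 202, 194 and 160 RPMM in the v1.5-GAIIx libraries and 0 reads in each of the other 6 libraries, and was thus at least 410-fold higher than in TS-GAIIx, where 3 reads in the shallowest library allow up to 0.452 RPMM. It entered the table of 350 only through the v1.5 libraries. It held 1.90% ± 0.111 of the miR-29b-3p reads there, and 99.4% of its exact reads had 21 nt, ending where miR-29b-3p ends. The start 1 nt upstream of miR-29b-3p went the other way in its share, with 2.68% ± 0.0562 in TS-GAIIx, 0.507% ± 0.0685 in v1.5-GAIIx and 2.90% in NF-HiSeq, although its level rose from 8.68 to 48.9 RPMM (log2 2.49, SE 0.11, edgeR adjusted p = 1.69e-05).

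Further downstream, reads of miR-29a-3p that lack their first 4 to 7 bases were found mostly in TS-GAIIx. The downstream starts of the 3p arms were chosen after their values had been seen. Those from +3 on that were called lower with v1.5 passed the limit on the mean only through the TruSeq libraries. The +4 start of miR-29b-3p passed it only through the v1.5 libraries (0.981 RPMM in TS-GAIIx, 3.27 in v1.5-GAIIx). All of these starts are therefore given as a description. miR-29a-3p (+5) was at 20.4, 19.7 and 22.5 RPMM in TS-GAIIx and at 0.254, 0.168 and 0 RPMM in v1.5-GAIIx (log2 -7.08, SE 0.52, edgeR adjusted p = 7.59e-05). The +6 start had 22.4 ± 3.69 and 0.403 ± 0.286 RPMM (log2 -5.79, SE 0.48, edgeR adjusted p = 0.000125). Both had 0 reads in the other 3 libraries. Their commonest forms, 16 and 15 nt long, lack the front of the miR-29 seed, and the capitals again mark bases 2 to 8:
miR-29a-3p (+5): cCAUCUGAaaucgguu
miR-29a-3p (+6): cAUCUGAAaucgguu
Some of these counts are fractions, from reads that fit several places and were divided among them. The largest downstream start of miR-29c-3p, at +2, had a mean of 21.7 RPMM with TruSeq on the GAIIx against 1.97 with v1.5 (log2 -3.45, edgeR adjusted p = 4.21e-05). Its +3, +5 and +6 starts were also lower with v1.5 (log2 -2.14, -2.59 and -4.26; edgeR adjusted p = 0.000637, 0.00253 and 4.65e-05), while its +4 start did not pass the test (2.70 and 2.53 RPMM, log2 -0.09, edgeR adjusted p = 0.847). The +3 start was highest in NF-HiSeq, at 8.06 RPMM against 2.71 in TS-GAIIx. For miR-29b-3p, the +4 and +5 starts were higher with v1.5 in RPMM (log2 1.80 and 0.98) and the +6 start was lower (log2 -1.78; edgeR adjusted p = 0.0276, 0.0157 and 0.0146). As a share of the arm's reads, the +4 start was at 0.300% ± 0.140 in TS-GAIIx and 0.0330% ± 0.0137 in v1.5-GAIIx, and the +5 start at 1.10% ± 0.275 and 0.0718% ± 0.0152, so that with v1.5 the shares were lower while the levels were higher.

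The loop of Mir29b-1 was also read, as a fragment of 17 nt that ends directly before the 3p start and accounts for 98.7% of its exact reads:
Mir29b-1 loop: uuuaaauagugauuguc
It was at 5.27, 6.43 and 8.31 RPMM in TS-GAIIx and at 28.0, 29.0 and 26.6 RPMM in v1.5-GAIIx (log2 2.05, SE 0.18, edgeR adjusted p = 0.000159). NF-HiSeq held 7.71 RPMM and TS-HiSeq-ML 4.25 RPMM, and NF-HiSeq-ML had 0 reads. The liver TruSeq library thus had more reads of this loop (70) than of all 3 mature 3p arms together (9). The loop, too, was chosen after its values had been seen.

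In liver, TruSeq and NEXTflex gave very different pictures of the family. Both libraries came from the same RNA, and there is 1 of each, so no test was made. miR-29a-3p had 8 reads with TruSeq and 2526 with NEXTflex, a 362-fold difference in RPMM (exact interval of counting error 183 to 839), or 119-fold with 1 RPMM added, which ranked 3 among the 178 listed miRNAs and starts with at least 100 RPMM in a liver library. miR-29a-3p is in this set only through NF-HiSeq-ML, so that its place in it is a description. Relative to miR-30e-5p, miR-29a-3p was at 0.00011 times with TruSeq and 0.0859 times with NEXTflex, a wider gap than in RPMM. miR-29c-3p was at least 232-fold higher with NEXTflex, from 0 reads. miR-29b-3p, with 1 and 9 reads, had a ratio of 10.3 (1.43 to 452). With 1 RPMM added, 6.18% of the 178 were more than 10-fold higher with NEXTflex (median log2 ratio -0.78), among them miR-29a-3p. The other members stayed under 100 RPMM in both liver libraries and are not in the set, and with 1 RPMM added they were 43.2-fold (miR-29c-3p) and 1.53-fold (miR-29b-3p) higher with NEXTflex. Of the 178, miR-29a-3p and let-7b-5p (+1) were under 1 RPMM with TruSeq and at least 100 RPMM with NEXTflex (1.12%), and 10 (5.62%) showed the reverse.

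The liver passenger arms differed in direction among themselves. miR-29a-5p had 95 reads with TruSeq and 1 with NEXTflex (ratio of RPMM 82.9 in favour of TruSeq, 14.5 to 3308), and miR-29c-5p was at 3.59 and 0.139 RPMM. miR-29b-1-5p was at 3.27 RPMM with TruSeq and 49.8 RPMM with NEXTflex, 11.9-fold higher with 1 RPMM added, and the +2 start of miR-29c-5p was nearly equal at 10.1 and 9.94 RPMM. By these counts the 5p arm took 90.9% of the Mir29a reads in TS-HiSeq-ML and 0.0396% in NF-HiSeq-ML. For the miR-29b hairpins the 5p arms took 98.9% and 98.8%, so that with NEXTflex the liver's miR-29b was read almost only as miR-29b-1-5p. The arm of Mir29a with more reads in liver was thus the 5p arm with TruSeq and the 3p arm with NEXTflex.

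Between MIN6 and liver, the size of the difference also depended on the kit. In bulk RNA, fewer cells that express a miRNA and less of it per cell cannot be told apart. The background is 408 listed miRNAs and starts with at least 100 RPMM in at least 1 MIN6 or liver library. Of these, 350 reached it in MIN6, so that the set favours miRNAs that are high in MIN6. miR-29b-3p and miR-29c-3p are in it only through MIN6. With NEXTflex and 1 RPMM added, MIN6 exceeded liver 37.3-fold for miR-29a-3p, 365-fold for miR-29b-3p and 14.6-fold for miR-29c-3p, where 50.2% of 408 listed miRNAs and starts were more than 10-fold higher in MIN6 (median log2 ratio 3.37). With TruSeq the corresponding values were 2984-fold, 292-fold and 1417-fold (at least 7785-fold for miR-29c-3p without the added constant), where 40.4% passed 10-fold (median log2 ratio 2.06), and the sequencer differed too. All 3 members were thus higher in MIN6 with either kit, and miR-29a-3p and miR-29c-3p far less so with NEXTflex. For miR-29b-3p the order of the kits rests on the added constant, which exceeds both of its liver levels: without it the ratio was 947 with NEXTflex and 5096 with TruSeq, the latter from 1 liver read, so that no order is read from it. miR-29b-1-5p was nearly level between the tissues with NEXTflex (1.13-fold).

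The 3′ ends of the members differed between kits as well, which the 5′ end counts do not show. These values are a description, with no test. Of the exact reads of miR-29a-3p, 21 nt and 22 nt forms made up 41.6% ± 0.318 and 41.4% ± 0.508 in TS-GAIIx, but 64.7% ± 2.68 and 27.4% ± 3.03 in v1.5-GAIIx. miR-29c-3p showed the same leaning, from 34.7% ± 0.819 and 55.2% ± 0.842 to 55.7% ± 1.71 and 37.2% ± 1.93. In these forms NF-HiSeq was near TruSeq for both, with 45.3% and 47.2% for miR-29a-3p and 35.6% and 55.3% for miR-29c-3p. At 20 nt, NF-HiSeq was near v1.5 instead for miR-29a-3p. This form made up 13.9% ± 0.335 in TS-GAIIx, 4.49% ± 0.197 in v1.5-GAIIx and 4.13% in NF-HiSeq. miR-29b-3p was read as 23 nt in 89.9% ± 0.482, 94.9% ± 0.218 and 92.4% of exact reads, in the same order. In MIN6 it thus kept 1 dominant length with every kit. In NF-HiSeq-ML, miR-29a-3p leaned to 21 nt (57.8%, with 34.4% at 22 nt), whereas miR-29c-3p was mostly 22 nt long (86.2%, with 13.8% at 21 nt).

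Reads that carry a base at their 3′ end that does not match the genome were few in MIN6. The share of miR-29c-3p reads with a mismatching final A was 5.19% ± 0.214 in TS-GAIIx, 0.619% ± 0.0472 in v1.5-GAIIx and 0.00619% in NF-HiSeq. For miR-29a-3p it was 1.81% ± 0.109, 0.825% ± 0.0513 and 0.958%. For miR-29b-3p it was lowest in TS-GAIIx, at 0.506% ± 0.132, with 1.05% ± 0.0780 in v1.5-GAIIx and 2.24% in NF-HiSeq. A mismatching final G was on 2.32% of the miR-29b-3p reads in NF-HiSeq. The liver was different for miR-29a-3p. In NF-HiSeq-ML, 21.7% of its reads ended in a mismatching A and 5.98% in a mismatching T (U in RNA). For miR-29c-3p in the same library, 0.165% ended in a mismatching A. A base added after synthesis and a sequencing error at the last base cannot be told apart in these files.

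**Figure D5:**
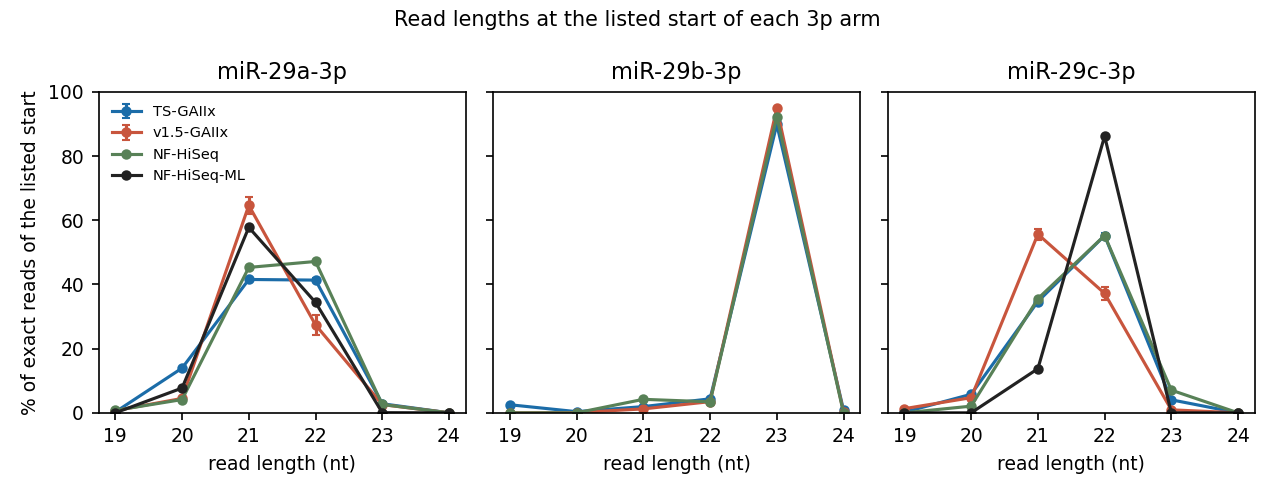
Share of exact reads (y, percent) by read length (x, nt) at the listed start of each 3p arm; points are means of 3 libraries with SD bars for the GAIIx groups and single libraries otherwise. miR-29a-3p and miR-29c-3p shift towards 21 nt with v1.5-GAIIx (64.7% and 55.7%), and miR-29b-3p stays at 23 nt; NF-HiSeq-ML is left out for miR-29b-3p and TS-HiSeq-ML throughout, with 9 reads or fewer.

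Across the 9 libraries, miR-29a-3p and miR-29c-3p were nearest to each other in pattern, and miR-29b-3p was nearer to other miRNAs. Likeness was taken as the root mean square difference of log2(RPMM + 1), centred on each miRNA's mean, against 289 other reference miRNAs, and is a description over libraries that share kits. miR-29b-3p was most like miR-200a-3p (0.629), miR-200c-3p (0.905) and miR-369-3p (1.03), which were also far higher with v1.5 than with TruSeq, and was further from miR-29a-3p (2.25) and miR-29c-3p (2.28). miR-29a-3p and miR-29c-3p were close to each other (0.700), closer than either was to any other reference miRNA. Next came miR-129-1-5p (1.27), miR-429-3p (1.59) and miR-384-5p (1.75) for miR-29a-3p, and miR-129-2-5p (0.999), miR-429-3p (1.04) and miR-7a-2-3p (1.34) for miR-29c-3p. Of 14 other miRNAs known from beta cells, 13 were tested between the GAIIx groups, and 9 were higher and 4 lower with v1.5 (median log2 1.28, from -2.56 to 5.16), where 92.6% of the 350 differed and 56.3% were higher. miR-24-3p had a log2 fold change of 5.16, near that of miR-29b-3p, and miR-375-3p, the most abundant of them in the GAIIx libraries, was lower with v1.5 (-1.12).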

How the data were processed

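Small RNA was sequenced in 9 libraries. Per the labels, reads were trimmed with cutadapt and aligned to mm9 with Bowtie (versions not given in the sources used here), and per the study's methods the first and last 4 bases of NEXTflex reads were removed. The authors deposited 1 line per distinct alignment and its expected count, where a read that fits several places equally well is split evenly. No duplicates were removed by molecular identifiers, so intervals cover counting error only.

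Here, counts were summed by 5′ end and strand, with copies of miR-29b-3p added, and divided by the study's mapped reads to give RPMM. The sums of the counts exceed these mapped reads by 0.264% to 8.41%. Names were given by matching the values of the study's supplementary tables to 5′ ends (relative tolerance 3e-05). All 358 MIN6 entries were placed, 342 by values that matched in each of the 7 MIN6 libraries (the listed miR-29 entries among them) and the rest with a listed 0 against under 1 RPMM or with up to 2 libraries that differed, as were the 56 that only the liver table holds. At 15 entries more than 1 position had equal values. The liver table lists miR-29a-3p at 0 in TS-HiSeq-ML, where the deposited alignments hold 8 reads. Exact alignments end 1 base short in the files, which was corrected. At the hairpins, 0 of 121 to 164 kinds of mismatch per hairpin equalled the RefSeq base. Coordinates of mm9 and GRCm38.p6 were not converted.

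For v1.5-GAIIx against TS-GAIIx, counts rounded to whole numbers were tested with edgeR 4.0.16 in R 4.3.3 (quasi-likelihood, mapped reads as library sizes, no further scaling, Benjamini-Hochberg adjustment over the whole table, threshold 0.05). Standard errors were obtained from the F statistic (log2 fold change over its root). The fit was tested on simulated data with known changes. Ratios within libraries were tested by exact permutation (SciPy 1.17.1). Alternatives used TMM, DESeq2 1.42.0, other scalings, filters, exact alignments, summed starts and each library left out. Replicates differed by far more than counting noise (chi-square per degree of freedom 29.0 to 102), so no library was counted as a copy. Starts are named when the study lists them or when they hold at least 5% of an arm's reads in any library, and neighbours are the 3 miRNAs nearest in pattern. The downstream starts of the 3p arms and the loop were added after their values had been seen. The members, lists and tests were chosen with earlier results of these data known.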

Additional observations from a re-analysis of the deposited data

Results flagged for a closer look

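For 3 of the 7 arms at their RefSeq starts, NF-HiSeq lay on one side of every TS-GAIIx library and the liver NEXTflex library on the other side of the liver TruSeq library. miR-29c-3p had a log2 ratio of NEXTflex over TruSeq of 5.43 in liver and -1.16 in MIN6 (1 RPMM added). For miR-29a-5p the log2 ratio was -2.66 in liver and 1.46 in MIN6. For miR-29c-5p at its RefSeq start it was -2.01 in liver and 0.24 in MIN6, where NF-HiSeq (16.7 RPMM) was just above the highest TS-GAIIx library (16.5 RPMM). Over all starts of miR-29c-5p this opposition was gone, with NEXTflex lower in MIN6 (45.6 RPMM against 70.8 to 85.3) and in liver (11.9 against 15.2 RPMM), which leaves miR-29c-3p and miR-29a-5p. The difference between the tissues was not tested, since each kit has 1 liver library and NEXTflex has 1 MIN6 library, and the MIN6 TruSeq libraries were read on the GAIIx and the liver one on the HiSeq.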

How the results depend on the processing

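The fold changes of miR-29a-3p, miR-29b-3p and miR-29a-5p between v1.5-GAIIx and TS-GAIIx kept their direction and their call under every alternative run, with the lowest log2 values under DESeq2's size factors (0.61, 4.32 and 2.29), and the within-library ratios kept their direction. miR-29c-3p lost its call with DESeq2's size factors (log2 0.060, adjusted p = 0.288). The count of differing miRNAs was 324 of 350, 12528 when all 5′ ends with a mean of at least 1 RPMM were tested, and 312 to 321 without each library in turn. Signs turned for miR-29a-3p (-1) with TMM (-0.38) and DESeq2's size factors (-0.46), for miR-29c-5p (+2) with exact alignments (0.079, from -0.09), and for miR-29a-3p in NF-HiSeq over v1.5-GAIIx relative to miR-30e-5p (0.37, from -0.65). The log2 ratio of NF-HiSeq over TS-GAIIx for the summed 3p arms was 0.34, 0.39 when scaled to the sum of all counts, 1.20 relative to miR-30e-5p and 0.41 with exact alignments. The causes were not tested. With the replicate number as a block, 328 of 350 were called and the log2 fold changes were 1.22, 4.93 and 0.67 for miR-29a-3p, miR-29b-3p and miR-29c-3p, with no other member's call changed. The numbers are shared labels only: deviations of same-numbered libraries correlated at 0.0907, 0.189 and 0.191, each the best match, a hint from the data and not from the design. Not run were a table without filter and summed starts for the starts under 100 RPMM, summed starts and an added constant for the share of the -1 start, and ratios without an added constant for miR-29c-3p in liver, which had 0 reads. The liver TruSeq values of the 3p arms rest on 9 reads, although this library has more mapped reads than NF-HiSeq-ML, and the counting error of these few reads limits their ratios.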
